A study of Arabidopsis thaliana with 8 samples.

Results

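The 10 genes described here encode enzymes of sterol synthesis in Arabidopsis thaliana: the cyclase CAS1, the methyltransferases SMT1, SMT2 and SMT3, the demethylase CYP51G1, the reductase FK (FACKEL), the isomerase HYD1 (HYDRA1) and the dwarf genes DWF7, DWF5 and DWF1. They were taken by locus from a table of 30361 features, 1 per locus, and all 10 were present. Leaf RNA was compared between plants carrying DGTT2, a diacylglycerol acyltransferase gene of the green alga Chlamydomonas, and the wild type (WT), with 4 biologically independent RNA samples of each and 1 single-colour Cy3 NimbleGen array per sample. All transgenic plants were of line 57. The transgene and any other feature of that line therefore cannot be told apart, and neither the promoter of the transgene nor the accession of the plants is stated in the labels. Plants of both genotypes were 6 weeks old, raised on soil at 22 C in days of 16 h light and 8 h darkness. The study asks how leaves differ when carbon is moved from surface lipids into triacylglycerol.

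Plant sterols are membrane lipids that also serve as precursors of the brassinosteroid hormones. Their synthesis starts from mevalonate, passes through squalene and its epoxide, and is committed when CAS1 closes the epoxide into cycloartenol. The later enzymes remove methyl groups from the rings, move and reduce double bonds, and alkylate the side chain, and a second round of side-chain methylation decides between campesterol, the brassinosteroid precursor, and sitosterol, the main sterol of the membrane. Sterols and the acyltransferase product triacylglycerol are both made at the endoplasmic reticulum.

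None of the 10 genes was called changed between the genotypes, and SMT3 stood farthest from no difference, at 0.712 of the WT level. Values are log2 expression as deposited, a difference is the DGTT2 mean minus the WT mean on that scale, and a feature was called changed at a Benjamini-Hochberg adjusted p under 0.05 in limma over all 30361 features. In all, 0 of 10 genes passed (1 at an unadjusted p under 0.05, SMT3), against 22 features or 0.0725% of the table. Before adjustment, p was under 0.05 for 10.5% of the table, or for 5.96% counting only features lower in DGTT2, so 1 of 10 genes is near the background. The mean was lower in DGTT2 for 9 of the 10 genes and for 50.3% of all features. The median difference was -0.13 over the 10 genes and -0.001 over all features. The interval of 95% for the difference lay within 2-fold for all 10 genes and within 1.5-fold for 9 of them, as it did for 91.9% and 68.3% of all features.

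**Figure D1:**
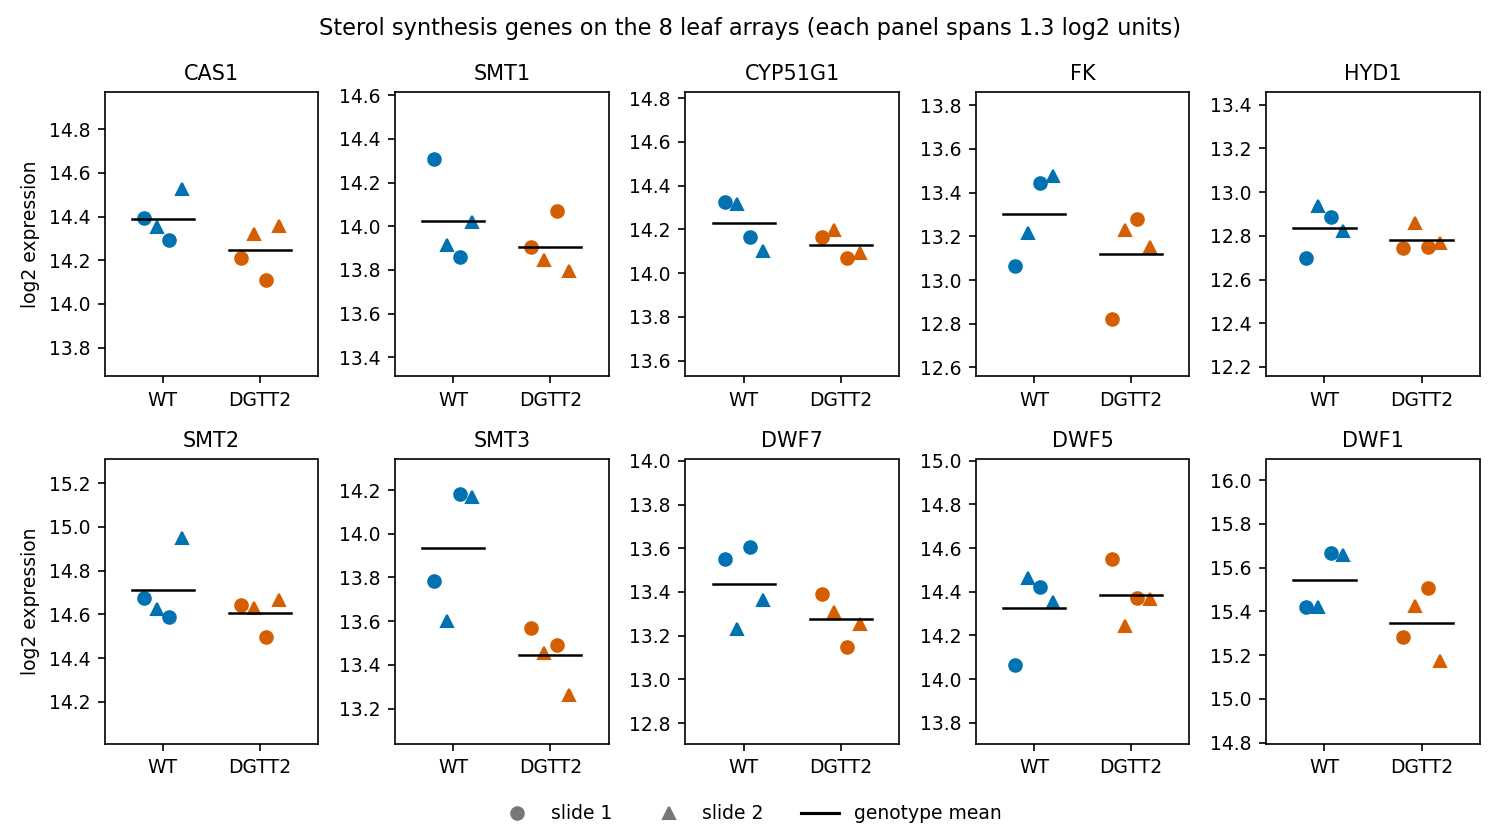
Log2 expression (y axis) of the 10 sterol synthesis genes on each of the 8 arrays by genotype (x axis), with circles for slide 1, triangles for slide 2 and a line at each genotype mean. The WT and DGTT2 points separate in the SMT3 panel, from 13.60 up and from 13.57 down, and overlap in the other 9.

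Pairwise correlations of the arrays over all features were 0.988 to 0.995, and array medians were 10.19 to 10.28. Per the labels, 2 slides carried 4 arrays each, and both genotypes had 2 arrays on either slide. WT samples lay at positions 1 and 2 and DGTT2 samples at positions 3 and 4 of both slides, so the genotype cannot be told apart from the position. The transcript of DGTT2 was not measured here, since all features carry Arabidopsis loci. The sterol genes were bright in leaf, with a lowest single value of 12.70, above the mean level of 99.0% of the 4414 features that RefSeq lists as pseudogenes. Only DWF1 had a genotype mean over 15, where 805 features lie and where values may be compressed, which was not measured. Levels of different genes are not ranked, because probes differ in how strongly they bind.

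The leaf label was set against 24 marker genes, of which 0 were called changed (3 at an unadjusted p under 0.05, limma: CAB2, MYB60 and PI). An unadjusted p under 0.05 was found for 10.5% of all features. Photosynthesis genes were near the top of the scale, with RBCS1A, the small subunit of Rubisco, between 15.74 and 15.99 and RCA, its activase, between 15.68 and 15.99. CAB2, a light-harvesting gene with near-identical copies, was dim, at 6.14 to 7.66. Markers of root hairs (EXPA7 and COBL9, 4.82 to 6.38), of flowers (AG, AP3 and PI, 5.18 to 7.41) and of seeds (CRA1 and OLEO1, 5.17 to 7.01) were near 5.95, the median pseudogene level. Of the 8 marker lists, mesophyll and flower had summed log2 levels that did not overlap between the genotypes, at 54.08 to 54.55 in DGTT2 against 53.01 to 53.91 in WT for the 4 mesophyll genes, where CAB2 alone differed by 0.72, and at 18.91 to 19.57 against 17.55 to 18.61 for the 3 flower genes. The other mesophyll genes differed by -0.08 (RCA), 0.04 (RBCS1A) and 0.14 (CA1). The guard cell genes went both ways, at 0.57 (MYB60), -0.13 (FAMA) and -0.17 (KAT1). Genotypes did not overlap in MYB60 and FAMA. Among single features the genotypes did not overlap in 1711 of 30361, and no such share was computed for sums. Sums for the 3 dividing-cell genes, whose cells make new membrane, ran from 29.75 to 30.64 in DGTT2 and from 29.16 to 30.31 in WT. The part of these lists in the sterol values was not tested. In bulk leaf RNA, fewer cells of a type and less RNA per cell cannot be told apart.

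SMT3 (AT1G76090) encodes one of a pair of methyltransferases that add the second methyl group to the side chain, on the way to sitosterol. Its log2 expression was 13.57, 13.45, 13.49 and 13.26 in DGTT2 replicates 1 to 4 and 13.79, 13.60, 14.18 and 14.17 in WT replicates 1 to 4. Every DGTT2 array lay below every WT array, with a gap of 0.03 between the nearest arrays of the genotypes. Non-overlap with DGTT2 lower held for 3.32% of all features, and for 1 of the 10 sterol genes. The difference was -0.49 (SE 0.15, 95% interval -0.83 to -0.15), which missed the threshold over all features (limma adjusted p = 0.271).

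The WT arrays of SMT3 fell into a higher and a lower pair, replicates 3 and 4 against replicates 1 and 2, and the DGTT2 arrays lay closer together. WT replicates 1 and 2 lay at position 1 of the slides and WT replicates 3 and 4 at position 2. This split of the WT arrays therefore cannot be told apart from the position. The SD was 0.29 in WT and 0.13 in DGTT2 (n = 4 each). The difference was -0.45 on slide 1 and -0.53 on slide 2, and leaving out 1 array moved it at most to -0.60 (without WT replicate 2) or to -0.41 (without WT replicate 3). The same WT pair was lowest in WRKY40, a regulator of early defence chosen after its values were seen: 12.06, 13.02, 10.25 and 9.99 in WT replicates 1 to 4, and 11.97 to 13.13 in DGTT2. The part of this WT split in the SMT3 difference was not tested.

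SMT2 (AT1G20330), the other enzyme of the pair, was at 14.64, 14.63, 14.50 and 14.66 in DGTT2 and at 14.67, 14.63, 14.59 and 14.95 in WT. The groups overlapped, and WT replicate 4 was the highest array. Its difference was -0.10 (SE 0.11, 95% interval -0.34 to 0.14; limma adjusted p = 0.82), and -0.02 without WT replicate 4. The within-array log2 ratio of SMT3 to SMT2 had a mean of -1.16 ± 0.17 in DGTT2 and -0.77 ± 0.27 in WT (SD, n = 4 each). This ratio was chosen after the values were seen and is given with no test, and its genotypes overlapped, at -1.40 to -1.01 and -1.02 to -0.40. Probe sequences were not used here, so signal shared between SMT2 and SMT3 was not assessed.

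SMT1 (AT5G13710) adds the first methyl group to the side chain, at the entry of the pathway. It was at 13.91, 13.85, 14.07 and 13.80 in DGTT2 and at 14.31, 13.92, 13.86 and 14.02 in WT. WT replicate 1 was the highest array and the other 7 were mixed by genotype. The difference was -0.12 (SE 0.12, limma adjusted p = 0.809), and -0.03 without WT replicate 1. The within-array log2 ratio to SMT1, also chosen after the values were seen, had means of 0.70 ± 0.19 in DGTT2 and 0.68 ± 0.23 in WT for SMT2 (SD, n = 4 each). For SMT3 the means of this ratio were -0.46 ± 0.11 and -0.09 ± 0.39 (SD, n = 4 each), with overlap between the genotypes.

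CAS1 (AT2G07050), the cyclase that commits carbon to sterols, was at 14.21, 14.32, 14.11 and 14.36 in DGTT2 and at 14.39, 14.35, 14.29 and 14.53 in WT. The groups overlapped, with the 2 lowest arrays from DGTT2 and the 2 highest from WT. The difference was -0.14 (SE 0.10, 95% interval -0.36 to 0.08; limma adjusted p = 0.691).

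Of the enzymes that work on the rings next, CYP51G1 (AT1G11680), the cytochrome P450 that removes a methyl group, was between 14.07 and 14.20 in DGTT2 and between 14.10 and 14.32 in WT. FK (AT3G52940), which reduces the double bond that this leaves, ran from 12.82 to 13.28 in DGTT2 and from 13.06 to 13.48 in WT, and DGTT2 replicate 1 was its lowest array. HYD1 (AT1G20050), which moves a ring double bond, ran from 12.75 to 12.86 and from 12.70 to 12.94. The groups overlapped in all 3. Their differences were -0.10 for CYP51G1 (95% interval -0.31 to 0.11), -0.18 for FK (-0.49 to 0.13) and -0.05 for HYD1 (-0.26 to 0.15). FK was at -0.08 without DGTT2 replicate 1, and HYD1 at -0.02 without WT replicate 2.

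The last 3 steps are named for dwarf mutants, which are short of brassinosteroids. DWF7 (AT3G02580, STE1 in RefSeq), a desaturase that places a ring double bond, was at 13.39, 13.31, 13.15 and 13.25 in DGTT2 and at 13.55, 13.23, 13.61 and 13.36 in WT. DWF5 (AT1G50430), which reduces another ring double bond, was at 14.55, 14.24, 14.37 and 14.37 in DGTT2 and at 14.07, 14.46, 14.42 and 14.36 in WT. DWF1 (AT3G19820), the reductase that saturates the side chain, was at 15.28, 15.43, 15.51 and 15.17 in DGTT2 and at 15.42, 15.42, 15.67 and 15.66 in WT. The groups overlapped in each, and DWF1 was highest in WT replicates 3 and 4, as SMT3 and FK were.

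The difference of DWF7 was -0.16 (95% interval -0.42 to 0.09), with -0.31 on slide 1 and -0.02 on slide 2. DWF1 differed by -0.19 (95% interval -0.45 to 0.06), the second lowest of the 10 genes, with -0.15 and -0.24 on the slides. DWF5 was the only gene of the 10 with a higher mean in DGTT2, by 0.06 (95% interval -0.21 to 0.32). Its direction turned on 1 array: it was 0.22 on slide 1 and -0.10 on slide 2, and -0.03 without WT replicate 1, the lowest array. Over the 9 genes other than SMT3, differences ran from -0.19 to 0.06 and limma adjusted p-values from 0.612 to 0.923.

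**Figure D2:**
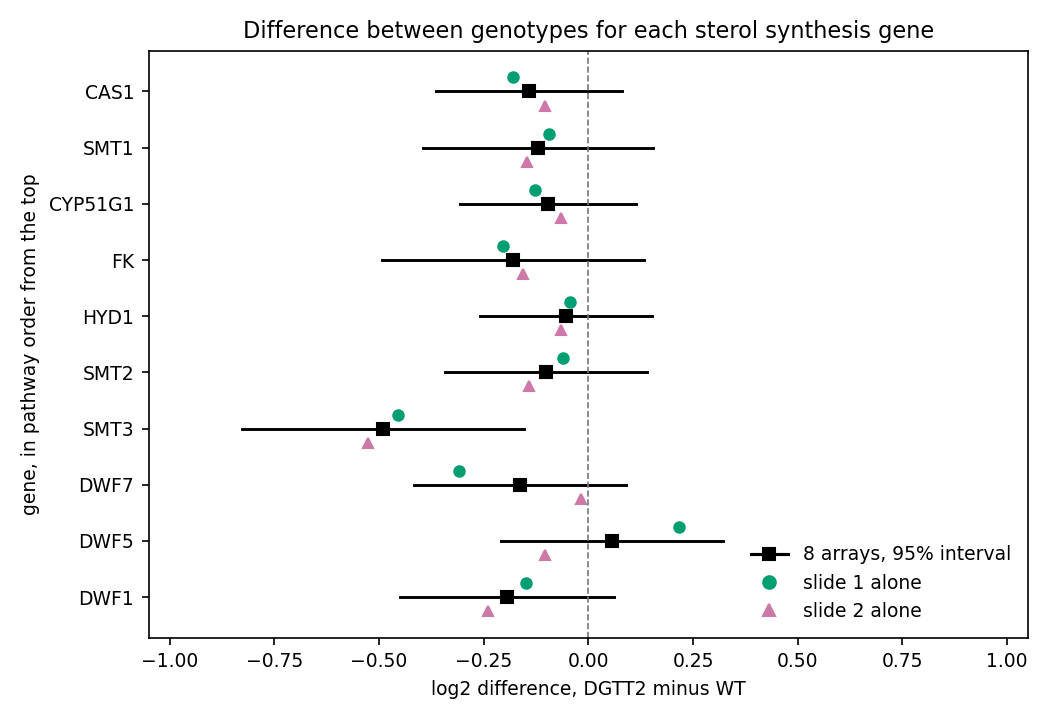
Log2 difference, DGTT2 minus WT (x axis), for each sterol synthesis gene in pathway order (y axis), with squares and 95% intervals from 8 arrays, circles for slide 1 alone and triangles for slide 2 alone. The SMT3 interval, -0.83 to -0.15, is the only one of the 10 that leaves out 0, and DWF5 alone lies on different sides of 0 on the 2 slides.

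The difference was in the same direction in most genes on each slide, with a lower DGTT2 mean in 9 of 10 genes on slide 1 and in 10 of 10 on slide 2. The slides split the same arrays that together gave 9 of 10, so these counts are not a separate repeat of that result. No share of all features with a lower DGTT2 mean is given for a single slide. With 2 arrays against 2, the genotypes did not overlap in 4 of the 10 genes on slide 1 and in 2 on slide 2, where 35.4% and 32.6% of all features did not. When each gene was centred on its own mean and the 10 were averaged per array, the 4 DGTT2 arrays lay at -0.07, -0.05, -0.07 and -0.11 and the 4 WT arrays at 0.03, 0.01, 0.11 and 0.15 on the log2 scale. The genotypes did not overlap in this average, and WT replicates 3 and 4, both at position 2, were its highest arrays. Without SMT3 the 9 other genes averaged -0.06, -0.03, -0.05 and -0.08 in DGTT2 and 0.02, 0.02, 0.07 and 0.11 in WT, again with no overlap. Of these 9 genes, 8 had a lower DGTT2 mean, so the 2 averages restate the single differences. Averages of other genes were not computed, so how often such averages separate the genotypes is not known. No test is given for the average, since the genes were chosen with earlier results known.

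**Figure D3:**
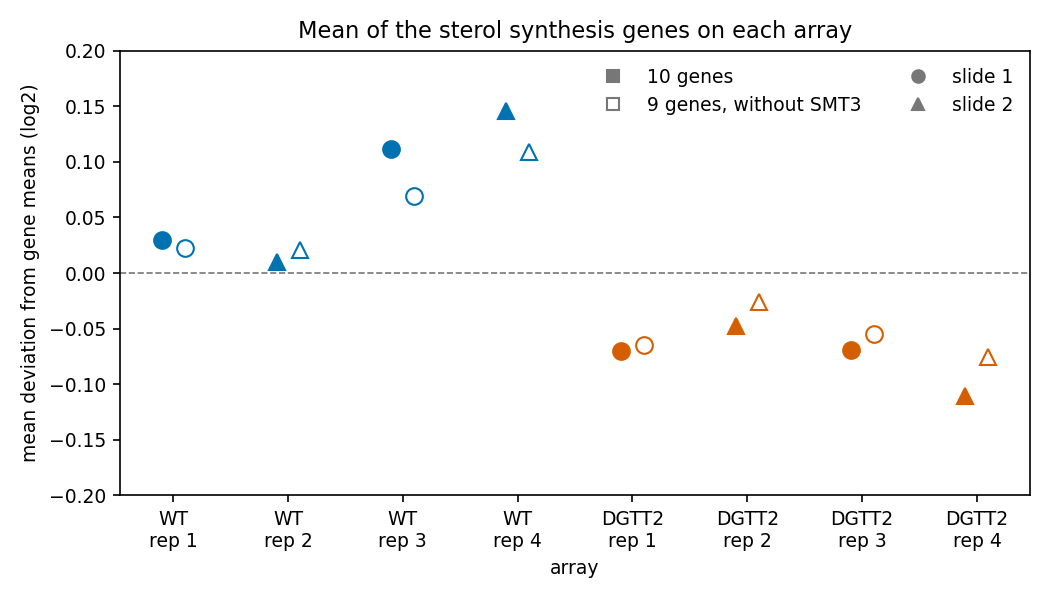
Average over the sterol synthesis genes of each gene's deviation from its own mean (y axis, log2 units) on each of the 8 arrays (x axis), with filled symbols for 10 genes, open symbols for 9 genes without SMT3, circles for slide 1 and triangles for slide 2. DGTT2 arrays lie between -0.11 and -0.05 and WT arrays between 0.01 and 0.15 for the 10 genes.

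The SD of a sterol gene within a genotype ran from 0.05 for HYD1 in DGTT2 to 0.29 for SMT3 in WT (n = 4 each). The median residual SD was 0.14 over the 10 genes and 0.20 over all features, and 8 of the 10 lay below that second value, HYD1 and CYP51G1 with the smallest at 0.08 and 0.09. SMT3 and FK were the most variable, at 0.22 and 0.20. Between the slides, with genotype in the fit, 0 of the 10 genes passed (0 at an unadjusted p under 0.05, limma), where 0 features or 0% of the table passed and 9.31% of features had an unadjusted p under 0.05.

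The genes did not follow each other as a block across the arrays. Over the 45 pairs the median Pearson r over 8 arrays was 0.22, with 31 pairs above 0, and after genotype means were removed it was -0.04, with 19 pairs above 0. CAS1 and SMT2 were the most alike (r = 0.87, and 0.86 within genotype, 8 arrays). DWF1 was the sterol gene most like both SMT3 (r = 0.86, 0.77 within genotype) and FK (r = 0.79, 0.73 within genotype). Of all features, 0.389% were at least as like CAS1 as SMT2 was, and 0.932% at least as like SMT3 as DWF1 was. SMT1 and DWF5 ran opposite to each other (r = -0.65, 8 arrays). Each of the other members was most like SMT3 (DWF7, r = 0.68), FK (HYD1, r = 0.51), HYD1 (DWF5, r = 0.37) or, for SMT1 and CYP51G1, each other (r = 0.37). Features at least as like made up 5.02% of the table for DWF7, 11.1% for HYD1 and 16.9% for DWF5. For SMT1 and CYP51G1 the shares were 18.1% and 16.0%. The features most like the average of the 10 genes were AT3G44500 (r = 0.978), AT1G09370 (r = 0.973) and AT4G33970 (r = 0.971), none with a symbol in RefSeq. SMT3, itself part of the average, came seventh, at r = 0.967. The points share 2 genotypes, 2 slides and the authors' normalization, and no p is given.

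**Figure D4:**
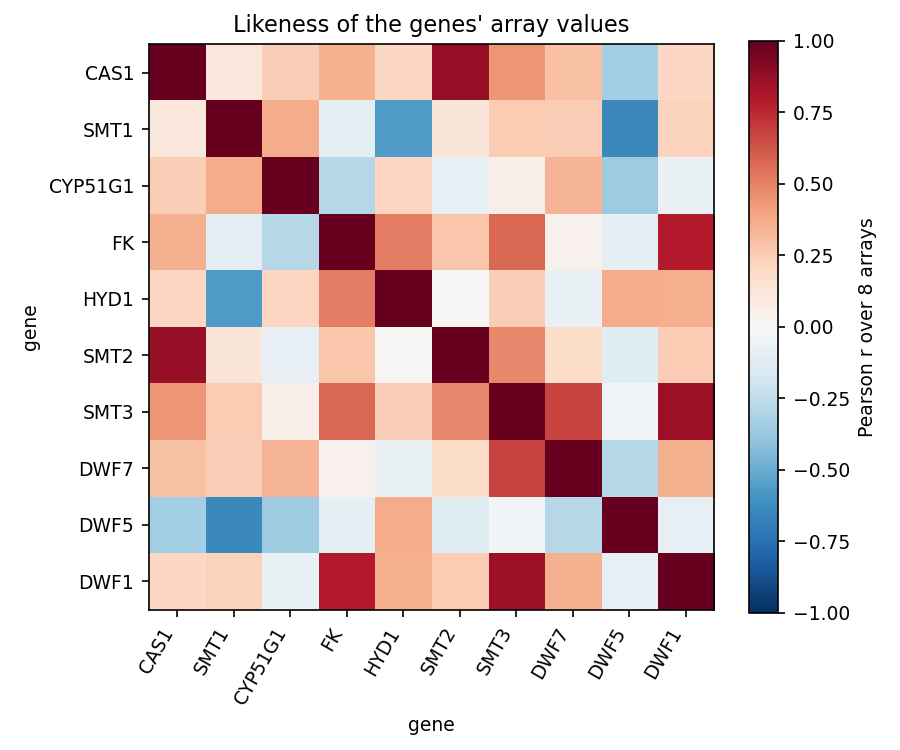
Pearson r over the 8 arrays (colour scale, -1 to 1) between each pair of sterol synthesis genes (both axes, in pathway order). CAS1 with SMT2 (0.87) and DWF1 with SMT3 (0.86) and FK (0.79) are the darkest red cells off the diagonal, and SMT1 with DWF5 (-0.65) is the darkest blue.

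The steps before the sterol branch and the routes that lead from it were read from 7 further lists with 65 genes. None of these 65 was called by limma. Before adjustment 3 of the 65 had a p under 0.05, where 10.5% of all features did. Of the 3, 2 were higher and 1 was lower in DGTT2. Non-overlap of the genotypes held for 3 of the 65 genes (SQE1, 3BETAHSD/D2 and PEN1) and for 1711 of 30361 features. In the mevalonate pathway 0 of 13 passed (0 at an unadjusted p under 0.05) and the median difference was 0.02. The 3 members of smallest p were FPS2, a farnesyl diphosphate synthase, at 0.21 (95% interval -0.19 to 0.60), AACT1, an acetoacetyl-CoA thiolase, at 0.13, and HMG2, one of a pair of HMG-CoA reductases, at 0.10. All 13 intervals lay within 2-fold. FPS2 was -0.07 on slide 1 and 0.48 on slide 2.

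In squalene synthesis and epoxidation 0 of 8 genes passed (1 at an unadjusted p under 0.05), with a median of -0.01. SQE1, the main squalene epoxidase, was at 13.59, 13.44, 13.23 and 13.55 in DGTT2 and at 13.62, 13.60, 13.80 and 13.86 in WT. The genotypes did not overlap, with the nearest arrays 0.012 apart, and the difference was -0.27 (SE 0.11, 95% interval -0.53 to -0.01; limma adjusted p = 0.447). SQE1 was -0.31 on slide 1 and -0.23 on slide 2. Among its relatives, SQE6 was at -0.17 and the dim SQE4 at 0.15.

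Of the 13 other genes of the sterol ring and side-chain steps, 0 passed (0 at an unadjusted p under 0.05), with a median of -0.05. The mean was lower in DGTT2 for 9 of the 13, where it was for 50.3% of all features. SMO1-2, of the oxidases that remove ring methyl groups, was at 0.26 (95% interval -0.08 to 0.60), and 3BETAHSD/D2, which works with them, at -0.11 (-0.30 to 0.08) with no overlap between genotypes. CYP710A1, of the desaturases that make stigmasterol, had means of 5.66 in DGTT2 and 5.90 in WT, both below the median pseudogene level.

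The other oxidosqualene cyclases compete with CAS1 for its substrate, and 0 of 12 passed (1 at an unadjusted p under 0.05), with a median of 0.002. LAS1, the lanosterol synthase, had the values 9.69, 9.83, 7.83 and 8.43 in DGTT2 and 7.67, 8.70, 7.93 and 8.13 in WT. DGTT2 replicates 1 and 2 were the highest arrays, the genotypes overlapped, and the difference was 0.83 (SE 0.44, 95% interval -0.16 to 1.82; limma adjusted p = 0.561). These 2 arrays lay at position 3 and DGTT2 replicates 3 and 4 at position 4. Their split cannot be told apart from the position. THAS1, the thalianol synthase, was at -0.40 (SE 0.19, limma adjusted p = 0.52). Its means of 6.16 in DGTT2 and 6.56 in WT were near the median pseudogene level, and its genotypes overlapped. PEN1, the arabidiol synthase, had means of 5.58 in DGTT2 and 5.06 in WT with no overlap (limma adjusted p = 0.24), both under the median pseudogene level and so not shown to lie above background. These cyclases are close in sequence, and signal shared between them was not assessed.

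Sterol conjugation had 0 of 4 genes passing (0 at an unadjusted p under 0.05) and a median of 0.01. ASAT1, which makes sterol esters, was at 0.34 (SE 0.15, 95% interval -0.01 to 0.68; limma adjusted p = 0.488), with 0.44 on slide 1 and 0.24 on slide 2. UGT80A2, a sterol glucosyltransferase, was at -0.11 and PSAT1, which makes sterol esters from phospholipid, at 0.02 (95% interval -0.25 to 0.29).

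In brassinosteroid synthesis and inactivation 0 of 8 passed (1 at an unadjusted p under 0.05), with a median of -0.02. ROT3, a P450 of the pathway, was at 0.44 (SE 0.16, limma adjusted p = 0.364), with 0.70 on slide 1 and 0.19 on slide 2. BR6OX2, which makes the end product brassinolide, was at -0.34 (95% interval -0.70 to 0.03), and CPD, a gene known to be repressed by the hormone, at -0.13 (-0.34 to 0.08). In brassinosteroid signalling 0 of 7 passed (0 at an unadjusted p under 0.05), with a median of -0.01. BIN2, the kinase that holds the pathway off, was at 0.13 and BKI1, the inhibitor of the receptor, at -0.14. BSU1, a phosphatase, had means of 5.38 in DGTT2 and 5.62 in WT, below the median pseudogene level.

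**Figure D5:**
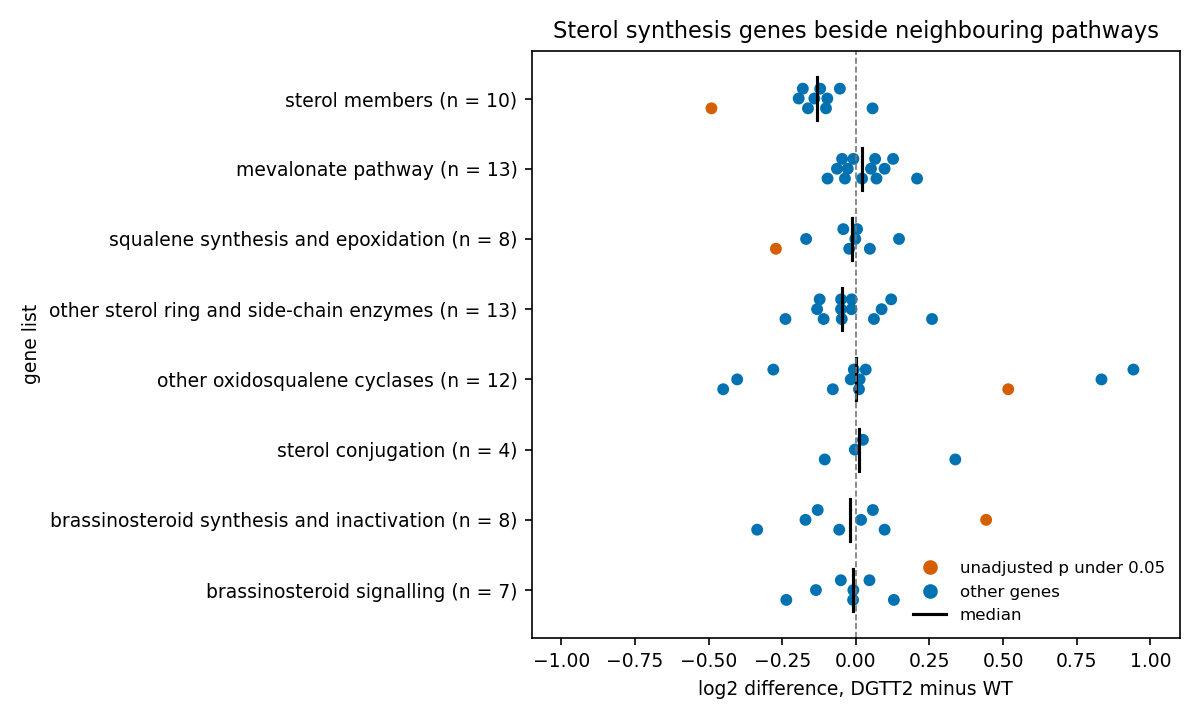
Log2 difference, DGTT2 minus WT (x axis), of every gene in the 10 sterol synthesis genes and 7 further lists (y axis), with a line at each list's median and orange points for an unadjusted p under 0.05. The sterol synthesis genes have a median of -0.13 and the medians of the other lists lie between -0.05 and 0.02.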

How the data were processed

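Log2 expression values were deposited by the authors as 1 table with a column per array; RMA and Partek are named for them, per the submitters' processing notes, with no settings, probes or annotation build stated. RMA makes the arrays' distributions nearly equal, which would hide a general shift in one direction. Values were used as deposited. Each feature was fitted in R 4.3.3 with limma 3.58.1 (functions lmFit and eBayes, two-sided, no term but genotype), with Benjamini-Hochberg adjustment over all 30361 features. The fit was tested on simulated data. Alternatives are given in the closing section. Features were found by locus, and symbols were checked against RefSeq (TAIR10.1), which gave 9 of the 10 symbols used. No coordinates or sequences are given, as the build behind the array is not stated. Members and lists were chosen with earlier results of these data known. Named genes were the 10 members and the 3 genes of smallest p in each further list; other names were chosen after their values were seen. The number of arrays limits the precision.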

Additional observations from a re-analysis of the deposited data

Results flagged for a closer look

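Of 62 groups of 4 arrays (31 named genes in both genotypes), 1 held an array far from the rest. BIN2 in DGTT2 replicate 3 was at 15.32, while the other 3 DGTT2 arrays were between 15.21 and 15.22. The gap was 0.903 of the group's range, above Dixon's critical value at 95%, which chance passes in about 1 in 20 groups. All values are log2 expression near the upper end of the scale.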

How the results depend on the processing

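Under 19 alternatives, 0 sterol genes and 0 of the 65 other pathway genes were called, and 188 of 190 alternative differences of the sterol genes kept their direction. The exceptions were DWF5 on slide 2 alone (-0.10) and without WT replicate 1 (-0.030; the 8 values without 1 array ran from -0.030 to 0.10). The number of sterol genes with a lower mean in DGTT2 was 9 or 10 throughout. Some alternatives change only the p-values or the features kept, and return each main difference exactly. These are trend and robust, leaving out features of low mean signal, the replicate block, and slide as a fixed or random block. Their values could not change direction, yet they are included in the 188 of 190 and in the count of lower means. SMT3 ran from -0.60 to -0.41 with adjusted p-values from 0.138 to 0.964. The number of sterol genes without overlap was 4 on slide 1 alone and 2 on slide 2 alone, where 35.4% and 32.6% of all features separated with 2 arrays against 2. The count of all called features was 13 with array median centring, 46 with trend and robust, 69 with slide as a fixed block, 1 on either slide alone, 3 with the replicate block, and 5 to 39 when 1 array was left out. It was lowest without WT replicate 4 and highest without WT replicate 2. The cause was not tested. Same-numbered samples deviated together (r over 0.1) in 1 of 4 pairs, so replicate numbers were not taken as pairs. Samples of other numbers did so in 3 of 4 pairs on the same slide and in 0 of 8 on different slides. With slide as a fixed block SMT3 had an adjusted p = 0.235 (limma). Single differences outside the 10 genes were followed for 21 named genes, where 387 of 395 values kept their direction. That count also includes the alternatives that could not change a direction. The reversals were CYP710A1 on slide 2 alone (0.082), FPS2 on slide 1 alone (-0.068), SQE4 on slide 2 alone (-0.26) and, without 1 array, -0.048 to 0.33, and PSAT1 with array median centring (-0.014), on slide 1 alone (-0.10) and, without 1 array, -0.050 to 0.076.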
